A study of Mus musculus with 12 samples.

Results

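Ear skin injected with IL-17A alone was compared with ear skin injected with PBS by RNA-Seq. The comparison rested on 6 of the 12 libraries of the series, 3 from IL-17A mice and 3 from PBS mice, chosen by their labels. All mice were female C57BL/6 animals of 8 weeks. IL-17A mice received 1 µg of recombinant murine IL-17A in 5 µL of PBS in the dermis of the ear pinna, PBS mice received PBS alone, and a part of the ear was taken for RNA on day 4. Per the methods, treatment went on over 4 consecutive days, and the number of injections per ear is not stated. Of the 5 mice in each group, 3 were sequenced. The injection itself was shared by both groups, and no uninjected ear was analysed here. The other 6 libraries, from mice given 1 µg of IL-36γ with or without 1 µg of IL-17A, entered the fit as groups of their own and added to the estimate of the spread between mice and to the filter on low counts.

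IL-17A is a cytokine made by T cells and innate lymphocytes, and in skin its main target cells are keratinocytes and fibroblasts. It binds the receptor chains encoded by Il17ra and Il17rc, the adaptor Act1 (Traf3ip2) passes the signal on through TRAF proteins, and the transcription factors NF-κB, IκBζ (Nfkbiz) and C/EBP raise antimicrobial proteins, acute phase proteins and chemokines that attract neutrophils. The endonuclease Regnase-1 (Zc3h12a) degrades many of the same messages and limits the response. The ear pinna holds epidermis, hair follicles and sebaceous glands on both faces, with dermis, muscle, cartilage and fat between them.

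The 6 libraries held 25293468 to 34759293 counted reads. Some libraries stood apart within their group. PBS replicate 1 had little skeletal muscle RNA, with a summed level of 20 muscle genes of 1808 CPM (read counts scaled to the size of the library, with TMM factors) against 12770 and 11150 CPM in the other PBS libraries and 5575 to 9570 CPM in the IL-17A libraries, and its 20 mitosis genes summed to 1136 CPM against 565 and 583 CPM. IL-17A replicate 1 had the highest share of mitochondrial reads, 5.66% against 4.30% and 4.55% in the other IL-17A libraries and 3.15% to 3.58% in PBS, and every IL-17A library was above every PBS library in this share. The part of these differences in the results was not tested. The defining markers of keratinocytes (Krt5, Krt14, Krt1, Krt10), fibroblasts (Col1a1, Pdgfra) and muscle were present in every library.

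**Figure D1:**
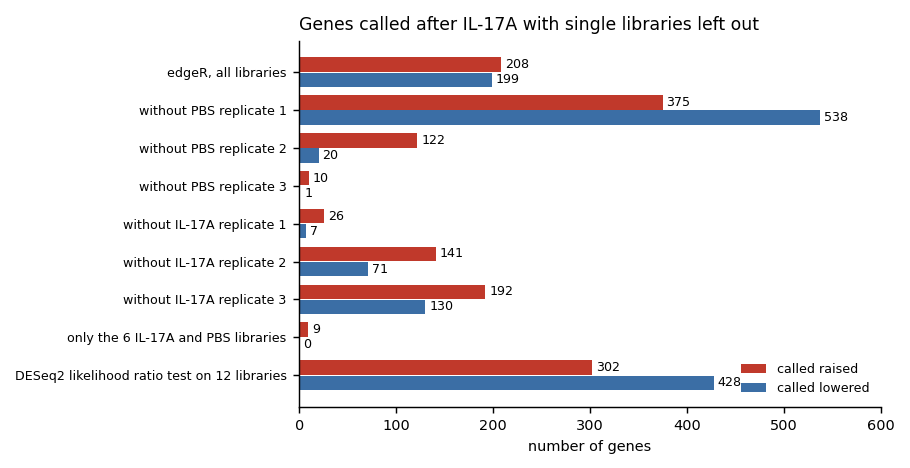
Bars give the number of genes called raised (red) and lowered (blue) after IL-17A, on a linear axis from 0, in the fit on all libraries, with each of the 6 libraries left out in turn, on the 6 libraries alone and by DESeq2. The total was 407 genes with all libraries, 913 without PBS replicate 1, 11 without PBS replicate 3 and 9 with the 6 libraries alone.

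A gene was called raised or lowered where the quasi-likelihood test of edgeR gave an adjusted p under 0.05 and the log2 fold change lay above 1 or below -1. Of 19408 genes tested, 1.07% were called raised and 1.03% lowered, or 2.1% in either direction, and these are the backgrounds for the counts below. The background for groups that do not overlap is 33.6% of all genes tested, 19.6% with IL-17A above and 14% below. The number depended on single mice, as the bar plot shows: 10 genes rose and 1 fell when PBS replicate 3 was left out, and 26 rose and 7 fell without IL-17A replicate 1. In a fit of the 6 libraries alone 9 genes were called, 9 raised and 0 lowered, while the 391 called genes still tested there all had the same direction and an unadjusted p below 0.05. Scaling mattered as well: with library size alone, without TMM factors, the median over all genes tested moved from 0.04 to -0.13 on the log2 scale, and 129 genes were called raised and 469 lowered, against 208 and 199. All 407 genes called with the complete set had the same direction whichever library was left out, and 405 to 407 of them kept an unadjusted p below 0.05. The genes were chosen on these same libraries, which the fits share. Kept direction and unadjusted p, also with the 6 libraries alone, were thus largely fixed in advance and are no independent support. Across 13 alternative settings of scaling, filter, tool and libraries 7 genes were called every time, and all 7 were raised: Saa3, Lcn2, Cfb, Zc3h12a, Defb6, Il22ra2 and the annotated pseudogene Gm8080. Of the 7 genes, Il22ra2 and Gm8080 are outside the lists used here and were picked once their values were known. The 13 settings left out the fit with the replicate number as a block. They included DESeq2 on the 6 libraries, which was chosen after seeing the data.

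Neither the receptors of the pathway nor most of its signal genes were called, whereas many of its target genes were raised. None of the 8 tested ligand and receptor genes was called (median log2 fold change 0.03, against 0.04 for all genes tested). Il17ra was at 30.6, 30.9 and 29.9 CPM in PBS and 31, 29.6 and 32.7 CPM in IL-17A, and Il17rc at 62.3, 56.8 and 53.3 against 61.6, 64.4 and 63.8 CPM. The groups overlapped for both. Of the 8 genes, 2 had every IL-17A library below every PBS library, against 14% of all genes. These were Il17rb and Il17re (-0.42 and -0.20, adjusted p = 0.0936 and 0.121 by edgeR). Il17a itself had 0 reads in all 6 libraries and was not detectable at this depth. Of 20 genes of signal transduction and feedback, 1 was called, Zc3h12a, at 19.7, 24.8 and 17.8 CPM in PBS and 48.9, 59.7 and 71 CPM in IL-17A (log2 fold change 1.53, standard error 0.15, adjusted p = 0.00106 by edgeR). Every IL-17A library lay well above every PBS library. Nfkbiz, the co-activator IκBζ, passed the adjusted p with a change under the fold threshold, from 36.5, 44.7 and 37.2 CPM to 59.1, 75.4 and 80 CPM (0.86 ± 0.11 SE, adjusted p = 0.00619). It too was separated in every library. The other signal genes, the receptor adaptors and TRAF genes among them, ran from -0.17 to 0.76, and only Tab3 among them also passed the adjusted p.

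Genes that IL-17A is known to raise in epithelium and fibroblasts were the list with the most calls by number, but not by share. All 6 red blood cell genes and 3 of 6 genes in the list of neutrophil-attracting CXC chemokines were called raised. All 24 tested members of the target list had a positive log2 fold change, with a median of 1.70, and 8 were called raised, or 33.3%. Il1f9, Saa1 and Cebpd were the lowest, at 0.10, 0.25 and 0.27, and overlapped between the groups. Lcn2, the siderophore-binding protein lipocalin 2, was at 2.1, 3.57 and 1.85 CPM in PBS and 19.1, 16.5 and 15.2 CPM in IL-17A (2.75 ± 0.23 SE, adjusted p = 0.000483). The IL-17A libraries were close to each other and the lowest was far above the highest PBS library. Saa3, an acute phase apolipoprotein made locally in inflamed tissue, went from 0.831, 0.934 and 0.364 CPM to 30.4, 11.1 and 20.4 CPM (4.84 ± 0.45 SE, adjusted p = 0.000919), the largest log2 fold change of any called gene. Steap4, a metalloreductase, was at 51.4, 55.7 and 56.1 CPM against 83.8, 107 and 109 CPM, under the fold threshold at 0.88 ± 0.11 SE (adjusted p = 0.00479). Of the called targets, 8 in all, 3 kept their call without PBS replicate 3 (Lcn2, Saa3 and Zc3h12a, with adjusted p over the 8 from 0.00465 to 0.169) and 4 without IL-17A replicate 1 (these and Cxcl1, with 0.00162 to 0.263).

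The promoters of the called targets were searched for 3 motifs of factors that act downstream of the receptor: NF-κB (the letters GGG, any 3 bases, then TTCC), C/EBP (TTGCNNAA) and AP-1 (TGACTCA). The 4 with the largest rise among those that held a match are printed, to show where the matches lie. Both strands were searched from 250 bases before to 50 bases after the start, in RefSeq sequence on GRCm38.p6. Capitals mark the matches: a C/EBP match at 99 bases before the start in Saa3 (chr7:46715627-46715926, minus strand), at 236 bases in S100a9 (chr3:90695672-90695971, minus strand) and at 216 bases in Lcn2 (chr2:32387690-32387989, minus strand), and NF-κB matches at 89, 71 and 70 bases before the start in Cxcl1 (chr5:90890995-90891294, plus strand). The last pair in Cxcl1 overlap and are printed as 1 stretch. A match on the opposite strand reads as the reverse complement.
Saa3: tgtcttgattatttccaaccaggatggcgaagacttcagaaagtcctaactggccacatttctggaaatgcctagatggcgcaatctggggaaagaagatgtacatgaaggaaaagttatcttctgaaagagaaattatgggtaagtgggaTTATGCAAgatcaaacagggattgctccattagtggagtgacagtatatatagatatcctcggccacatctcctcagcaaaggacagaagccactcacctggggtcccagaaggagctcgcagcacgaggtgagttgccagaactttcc
S100a9: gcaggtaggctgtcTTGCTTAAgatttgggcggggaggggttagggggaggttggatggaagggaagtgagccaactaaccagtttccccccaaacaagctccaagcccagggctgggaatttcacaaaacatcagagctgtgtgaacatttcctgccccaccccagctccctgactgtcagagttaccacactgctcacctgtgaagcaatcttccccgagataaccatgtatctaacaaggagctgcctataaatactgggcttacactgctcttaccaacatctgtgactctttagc
Lcn2: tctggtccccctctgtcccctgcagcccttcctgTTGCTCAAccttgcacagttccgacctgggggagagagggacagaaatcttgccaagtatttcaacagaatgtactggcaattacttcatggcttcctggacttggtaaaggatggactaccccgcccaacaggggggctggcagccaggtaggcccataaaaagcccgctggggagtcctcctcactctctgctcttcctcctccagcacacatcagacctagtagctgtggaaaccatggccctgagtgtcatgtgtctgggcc
Cxcl1: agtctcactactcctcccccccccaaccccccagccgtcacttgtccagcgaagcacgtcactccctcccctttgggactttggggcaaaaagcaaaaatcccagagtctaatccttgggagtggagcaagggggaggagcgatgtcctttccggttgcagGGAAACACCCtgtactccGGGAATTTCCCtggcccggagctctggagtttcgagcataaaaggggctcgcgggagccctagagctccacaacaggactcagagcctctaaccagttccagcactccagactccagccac
Cxcl5 had no listed promoter. Of the 7 other called targets, 4 held a C/EBP match and 2 an NF-κB match, and Il6 held all 3 motifs. Over the 12677 tested genes with a promoter, 10.6% held a C/EBP match, 7.33% an NF-κB match and 5.15% an AP-1 match. Over the 102 raised genes with a promoter the shares were 16.7%, 16.7% and 7.84%, and over the 38 lowered genes 7.89%, 0% and 5.26%. These shares describe letters in a window of 300 bases and were not tested.

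**Figure D2:**
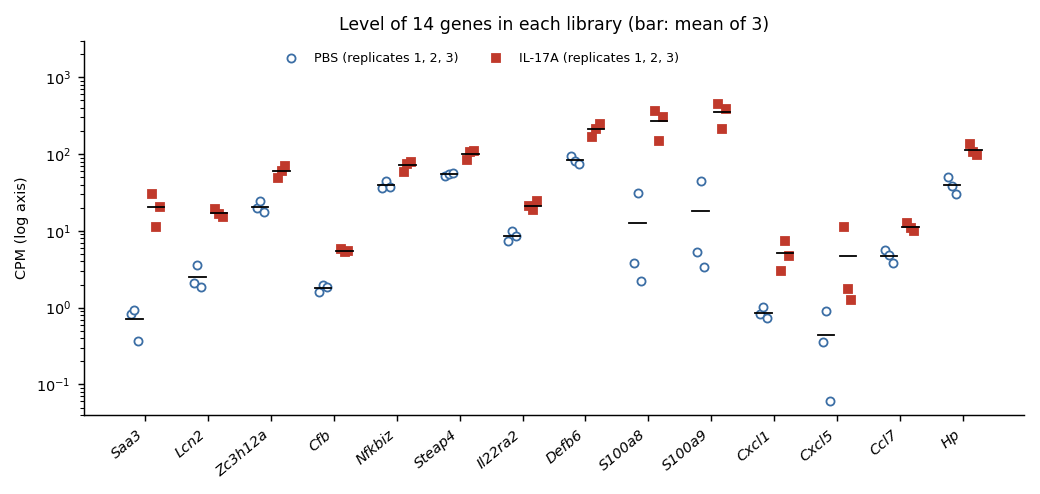
Points give the level of 14 genes in each PBS library (open circles) and each IL-17A library (filled squares) in CPM on a log axis, in replicate order from left to right, with a bar at each group mean. The 14 genes all passed the adjusted p in these libraries, and their groups do not overlap. Over all genes tested, 33.6% have groups that do not overlap, 19.6% with IL-17A above. S100a8, S100a9 and Cxcl5 vary most within a group.

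Besides Saa3 and Lcn2, 2 more of 14 acute phase and iron-binding genes rose. Haptoglobin (Hp), which binds free hemoglobin, was at 50.7, 38.8 and 30.2 CPM in PBS and 137, 107 and 96 CPM in IL-17A (adjusted p = 0.0132). The protease inhibitor Serpina3n went from 32.6, 33.6 and 27.9 CPM to 75.4, 59 and 60.8 CPM (1.05 ± 0.10 SE, adjusted p = 0.00106). Both were separated in every library. Ceruloplasmin (Cp), the copper-carrying ferroxidase, and Lbp, which presents bacterial lipopolysaccharide, passed the adjusted p at 0.83 and 0.41. The median of the list was 0.85. Lcn2 and Saa3 kept their call when PBS replicate 3 or IL-17A replicate 1 was left out, whereas Hp (adjusted p 0.0888 and 0.067) and Serpina3n did not. Serpina3n kept its adjusted p (0.00909 and 0.00162), and its log2 fold change of 0.97 and 0.90 was just under the threshold.

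Complement genes moved the same way, with 3 of 20 raised, 17 of 20 positive and a median of 0.65. Cfb, the catalytic part of the alternative pathway convertase, was at 1.61, 1.98 and 1.88 CPM in PBS and 5.75, 5.29 and 5.43 CPM in IL-17A (1.59 ± 0.15 SE, adjusted p = 0.000919). The 3 libraries of each group differed little. C1qb, a chain of the recognition molecule of the classical pathway made by macrophages, went from 52.1, 49.8 and 40.5 CPM to 133, 72.9 and 94.4 CPM (1.08 ± 0.18 SE, adjusted p = 0.0132). C3ar1, the receptor for the anaphylatoxin C3a, went from 23.1, 25.8 and 19.3 CPM to 65, 36.3 and 40.8 CPM (1.06 ± 0.19 SE, adjusted p = 0.0151). In both of the latter the IL-17A library highest in the group was replicate 1. C1ra, C1s1, C1qa, C1qc and Cfp passed the adjusted p with log2 fold changes of 0.65 to 0.75. Cfb alone of the called members kept its call when PBS replicate 3 was left out (highest adjusted p 0.0911), and also when IL-17A replicate 1 was, where the log2 fold changes of the other pair dropped to as low as 0.73.

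Of 18 antimicrobial genes 6 were raised, with a list median of 1.13. Defb6, a β-defensin of skin and muscle, was at 95.5, 82.1 and 75.3 CPM in PBS and 166, 215 and 250 CPM in IL-17A (1.32 ± 0.15 SE, adjusted p = 0.00354). It was called in all 13 alternatives. The calprotectin chain S100a9 went from 5.26, 45.2 and 3.36 CPM to 456, 211 and 385 CPM (4.29 ± 0.81 SE, adjusted p = 0.0165), and its partner S100a8 from 3.82, 31.5 and 2.24 CPM to 360, 148 and 303 CPM (4.43 ± 0.80 SE, adjusted p = 0.0151). PBS replicate 2 was the highest of its group in both, and IL-17A replicate 2 the lowest of its group. Wfdc17, a small whey acidic protein of myeloid cells, went from 22.5, 18.6 and 15.4 CPM to 43.7, 28.3 and 42 CPM (1.01 ± 0.20 SE, adjusted p = 0.0182). Reg3g, a C-type lectin of epithelial defence, was called (adjusted p = 0.044) on no more than 19 reads in any library and its groups overlapped. Only Lcn2 and Defb6 kept their call when PBS replicate 3 or IL-17A replicate 1 was left out, and the adjusted p of the others reached 0.164 and 0.192. Reads of S100a8, S100a9 and Wfdc17 can come from neutrophils or monocytes as well as keratinocytes, which bulk RNA does not separate.

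The list of neutrophil-attracting CXC chemokines also counts platelet factor 4 (Pf4), its most abundant member, which was not called (0.74). All 6 genes of the list had a positive log2 fold change, with a median of 1.93, and 3 were raised. Cxcl1 was at 0.831, 1.02 and 0.727 CPM in PBS and 3.04, 7.48 and 4.71 CPM in IL-17A (2.56 ± 0.47 SE, adjusted p = 0.0152). Cxcl5 was at 0.36, 0.906 and 0.0606 CPM against 11.3, 1.73 and 1.25 CPM (3.39 ± 0.96 SE, adjusted p = 0.0447). Ppbp was at 0.443, 0.368 and 0.273 CPM against 2.14, 1.13 and 1.13 CPM (adjusted p = 0.0229). All 3 were separated between the groups. Cxcl5 was carried by IL-17A replicate 1, and without that library its adjusted p was 0.263. Cxcl2 and Cxcl3 overlapped between the groups, with IL-17A replicate 1 the highest library for both (16.9 and 1.88 CPM). None of the 3 was called when PBS replicate 3 was left out (adjusted p 0.0911 to 0.169), and Cxcl1 alone remained when IL-17A replicate 1 or PBS replicate 2 was.

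Among 25 other chemokines 4 were raised, all of the CC type that attracts monocytes. Ccl7 was at 5.59, 4.9 and 3.82 CPM in PBS and 12.6, 10.8 and 10.1 CPM in IL-17A (1.22 ± 0.16 SE, adjusted p = 0.00613). Ccl8 was at 20.9, 30.5 and 22.2 CPM against 112, 50.7 and 58.3 CPM (1.59 ± 0.27 SE, adjusted p = 0.014). Ccl9 and Ccl2 rose by 1.23 and 1.16. All 4 had separated groups, and IL-17A replicate 1 was the highest library for each. Ccl25, which attracts lymphocytes to thymus and gut, moved the other way within the fold threshold, from 11.7, 12.8 and 13.6 CPM to 8.72, 9.07 and 8.93 CPM (-0.51 ± 0.10 SE, adjusted p = 0.0171). Of the 4, only Ccl7 kept its call when PBS replicate 3 was left out (adjusted p up to 0.0895), and Ccl7 and Ccl8 did when IL-17A replicate 1 was (up to 0.0969).

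Few cytokine genes were called. Of 15 IL-1 and IL-36 family genes 1 was raised, Il1f6, which encodes the epidermal agonist IL-36α, at 12.5, 9.99 and 6.15 CPM in PBS and 27.4, 18.6 and 28.4 CPM in IL-17A (1.37 ± 0.29 SE, adjusted p = 0.0216). The antagonist Il1rn and the alarmin Il33 passed the adjusted p at 0.55 and 0.71. Il1b had its highest level in IL-17A replicate 1 (60.3 CPM against 11.5 and 9.94 CPM), and the groups overlapped. Of 16 other cytokines Il6 and Il10 were raised (1.91 and 1.74, adjusted p = 0.0471 and 0.0292), both with at most 38 reads in a library. Of 11 EGF receptor ligands and receptors Epgn (epigen) was raised, from 0.581, 1.08 and 0.606 CPM to 5.9, 3.06 and 1.17 CPM (2.16 ± 0.56 SE, adjusted p = 0.036), and Hbegf stood just under the fold threshold at 0.99 (adjusted p = 0.0193). None of these 4 calls held when PBS replicate 2 (adjusted p 0.0614 to 0.132), PBS replicate 3 (0.101 to 0.165) or IL-17A replicate 1 (0.0988 to 0.172) was left out.

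A gene outside these lists, picked once its values were known, bears on IL-22, the cytokine that acts with IL-17A on keratinocytes. Il22ra2 encodes a soluble receptor that binds IL-22 and blocks it. The gene of the cytokine itself, Il22, had at most 1 read in any of the 6 libraries. Il22ra2 was at 7.28, 10.1 and 8.67 CPM in PBS and 21, 18.6 and 24.3 CPM in IL-17A (adjusted p = 0.00613), with every IL-17A library above every PBS library. Over the 13 alternatives its log2 fold change ran from 1.12 to 1.41 and its adjusted p reached at most 0.0497. The membrane receptor Il22ra1 was at 53.9, 39.5 and 40.2 against 30.7, 35.5 and 46.2 CPM and overlapped. In the STAT3 list no gene of 16 was called, and the feedback inhibitor Socs3 passed the adjusted p within the fold threshold, from 25.2, 25.4 and 24.8 CPM to 38.6, 50.1 and 42.4 CPM (0.80 ± 0.12 SE, adjusted p = 0.0117). Cish, another feedback inhibitor, passed it in the other direction, from 34.6, 38.9 and 40.9 CPM to 22.2, 29.9 and 24.1 CPM (-0.58 ± 0.17 SE, adjusted p = 0.0485, up to 0.169 with 1 library left out), and neither overlapped between the groups.

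Myeloid genes were higher after IL-17A, monocyte and macrophage genes most evenly. In bulk RNA a change in the number of cells of a type and a change in RNA per cell cannot be told apart, here and for every cell type below. Of 20 monocyte and macrophage markers 18 were positive (median 0.68), 2 were called raised and 9 passed the adjusted p, against 7.44% of all genes raised at that adjusted p. Ccr2, the receptor that brings monocytes from blood, was at 40.7, 61.6 and 37.4 CPM in PBS and 128, 94.3 and 96.7 CPM in IL-17A (1.19 ± 0.19 SE, adjusted p = 0.0118). Lyz2, the lysozyme of myeloid cells, was at 229, 256 and 216 CPM against 495, 402 and 460 CPM (0.95 ± 0.10 SE, adjusted p = 0.00106), and Adgre1 (F4/80) at 31.6, 41.2 and 33.6 against 69.2, 50.7 and 57.6 CPM (0.74 ± 0.12 SE, adjusted p = 0.0132). Chil3 rose by 2.25 (adjusted p = 0.0229) and its relative Chil1, a gene outside the lists, by 1.55, from 50.3, 55.1 and 30.1 CPM to 130, 127 and 139 CPM (adjusted p = 0.00576). The summed level of the 20 markers was 1388 to 1669 CPM in PBS and 1983 to 2744 CPM in IL-17A, without overlap. Outside the lists and picked once their values were known, as was Chil1, the scavenger receptors Marco and Msr1 (1.54 and 1.15), all 3 tested Sirpb1 genes (1.84 to 2.17) and 3 of 12 Toll-like receptor genes were also called raised. Sirpb1 genes are close copies of each other, so their reads may have been shared. Ccr2 and Chil3 lost their call when PBS replicate 3 (adjusted p up to 0.0782) or IL-17A replicate 1 (up to 0.0806) was left out.

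Neutrophil genes were higher too, and less evenly so. All 16 tested neutrophil markers were positive (median 1.64) and 4 were called: Cxcr2, Csf3r, the collagenase Mmp8 and the formyl peptide receptor Fpr2. In 7 of the 16 all IL-17A libraries lay above all PBS libraries. The defining marker Retnlg was at 0.48 and Ltf at 0.17 (adjusted p = 0.584 and 0.864), and both overlapped between the groups. Camp, Ngp, Elane and Mpo had too few reads to be tested. The chemokine receptor Cxcr2 was at 6.34, 5.04 and 4.03 CPM in PBS and 25.9, 10.8 and 14.6 CPM in IL-17A (1.73 ± 0.34 SE, adjusted p = 0.0178). Fpr2 was at 0.0554, 0.425 and 0 CPM against 2.14, 0.532 and 0.966 CPM (2.86 ± 0.79 SE, adjusted p = 0.0427), which is at most 57 reads. The defining marker Ly6g had 0 reads in all 3 PBS libraries and in IL-17A replicate 2, and 0.15 and 0.121 CPM in the others. The summed level was 110 to 143 CPM in PBS and 157 to 250.7 CPM in IL-17A, with replicate 1 the highest. Most of this sum came from the decoy receptor Il1r2, which was not called, at 87.8, 102 and 94.1 CPM against 117, 116 and 108 CPM. None of the 4 was called when PBS replicate 3 (adjusted p 0.101 to 0.157) or IL-17A replicate 1 (0.087 to 0.196) was left out.

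No T or NK cell marker of 20 was called (median 0.13). Cd3e was at 3.6, 4.36 and 3.33 CPM in PBS and 3.87, 3.39 and 2.17 CPM in IL-17A, and the summed level was 174.6 to 189.7 against 174.5 to 183.5 CPM. Cd4 and Cd2 passed the adjusted p within the fold threshold. Cd4, which T helper cells and some myeloid cells carry, was at 4.37, 5.18 and 6.03 CPM against 9.96, 9.04 and 8.69 CPM (0.83 ± 0.13 SE, adjusted p = 0.012). No Langerhans or dendritic cell marker of 14 and no mast cell marker of 10 was called, and of 3 tested B cell markers Cd79b was (1.37, adjusted p = 0.0322), with at most 34 reads. It lost its call when IL-17A replicate 1 (adjusted p 0.158), IL-17A replicate 3 (0.0574), PBS replicate 2 (0.113) or PBS replicate 3 (0.0905) was left out. Among 25 interferon-stimulated genes 23 were positive (median 0.52) but only Oas1a was called (1.24, adjusted p = 0.0336). It lost that call when PBS replicate 3 (0.15) or any 1 of the IL-17A libraries (0.0526 to 0.157) was left out.

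**Figure D3:**
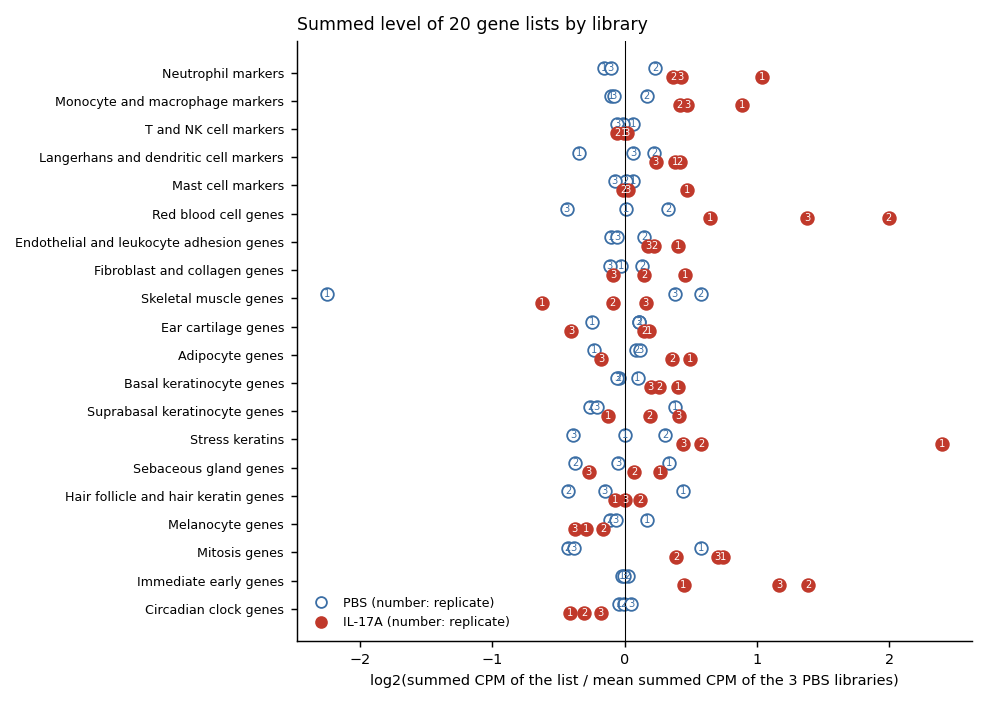
Each row gives the summed CPM of a gene list in each library over the mean of the 3 PBS libraries, on a log2 axis, with PBS open, IL-17A filled and the replicate number inside the point. Monocyte, red cell, immediate early and neutrophil lists lie above PBS in all 3 IL-17A libraries. So do the Langerhans and dendritic, basal keratinocyte, endothelial and stress keratin lists, while clock and melanocyte genes lie below. PBS replicate 1 is far below the others for muscle and IL-17A replicate 1 far above for stress keratins.

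The epidermis showed a limited set of changes, uneven between mice. No basal keratinocyte gene of 10 was called. Krt14 passed the adjusted p within the fold threshold, from 4834, 3744 and 3382 CPM to 7577, 5793 and 5568 CPM (0.66 ± 0.18 SE, adjusted p = 0.0404). Of 12 suprabasal genes Krt1 was raised, from 527, 353 and 296 CPM to 1812, 631 and 1035 CPM (1.56 ± 0.38 SE, adjusted p = 0.0304), while its partner Krt10 overlapped at 8162, 5054 and 5082 against 5633, 6839 and 8266 CPM. The call of Krt1 was lost when PBS replicate 2, PBS replicate 3 or IL-17A replicate 1 was left out (adjusted p 0.0989, 0.143 and 0.147). The stress keratins, which mark a wounded or psoriatic epidermis, had the highest median of the lists, 2.20, yet none of 4 was called. Krt16 was at 29.9, 110 and 8.55 CPM in PBS and 730, 133 and 141 CPM in IL-17A (2.75 ± 0.84 SE, adjusted p = 0.0549), and Krt6b at 2.19, 59.7 and 0.727 against 690, 48.7 and 70.4 CPM (adjusted p = 0.0885). IL-17A replicate 1 was far above the rest in both, and PBS replicate 2 above the other controls. The same pair of libraries stood highest in their groups for S100a9 and the stefins.

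Of 23 cornified envelope and Sprr genes 3 were raised and 1 lowered. Sprr2d, a cross-linked precursor of the cornified envelope, was at 1.05, 2.24 and 0.242 CPM in PBS and 19, 3.23 and 12.4 CPM in IL-17A (3.27 ± 0.75 SE, adjusted p = 0.0258). Sprr2b reached 119 reads at most and Sprr2a3 overlapped between the groups, with 31.6 CPM in IL-17A replicate 1 and under 2 CPM in the other 5 libraries. The Sprr2 genes are near-identical copies, so their separate values are uncertain. Tchh, trichohyalin of the inner root sheath, was lowered from 24.8, 22 and 20.2 CPM to 14.4, 9.74 and 7.4 CPM (-1.09 ± 0.23 SE, adjusted p = 0.0225). None of 21 late cornified envelope genes, 19 barrier lipid enzymes, 24 cholesterol synthesis genes, 12 fatty acid synthesis genes or 10 sebaceous genes was called. The medians of these 5 lists ran from -0.12 to 0.07. No Sprr gene was called when PBS replicate 3 (adjusted p 0.12 to 0.18) or IL-17A replicate 1 (0.126 to 0.525) was left out, and Tchh lost its call without PBS replicate 2 (0.0598), PBS replicate 3 (0.0911), IL-17A replicate 2 (0.0566) or IL-17A replicate 3, where its log2 fold change was -0.89.

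The list of epidermal protease inhibitors held some of the steepest rises, with 4 of 20 called and a median of 1.04. Serpinb3a, a serpin of squamous epithelium, was at 8.53, 5.61 and 2.55 CPM in PBS and 36.4, 20.1 and 37.2 CPM in IL-17A (2.48 ± 0.40 SE, adjusted p = 0.0126). The stefin A relatives, which inhibit cysteine proteases, are close copies of each other, so reads may have been shared among them. Stfa2 and Stfa2l1 of the same family are in the list of neutrophil markers (4.23 and 2.85, neither called). Bulk RNA does not separate stefin reads of keratinocytes from those of neutrophils. BC100530 was at 1.44, 14.4 and 0.364 CPM against 282, 17.5 and 53.1 CPM (4.44 ± 1.11 SE, adjusted p = 0.0324), Stfa1 rose by 4.01 and Stfa3 by 3.99. In BC100530 PBS replicate 2 came close to IL-17A replicate 2, and IL-17A replicate 1 was far above both. The adjusted p of the 4 was 0.0541 to 0.157 when IL-17A replicate 1 was left out and 0.0642 to 0.132 when PBS replicate 3 was. The kallikrein Klk13 was called raised as well (1.97 ± 0.53 SE, adjusted p = 0.0391). That call was lost without PBS replicate 2, PBS replicate 3, IL-17A replicate 1 or IL-17A replicate 3 (0.126, 0.162, 0.183 and 0.0702).

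A pair of genes without a proper name, picked once their values were known, lay near members of these lists. Gm8080, annotated as an unprocessed pseudogene at chr1:107020137-107025325 on the minus strand, had the lowest adjusted p of all genes, 0.000177. It was at 4.43, 6.48 and 4.49 CPM in PBS and 25.5, 28.6 and 40.4 CPM in IL-17A (2.61 ± 0.19 SE) and lies 20.3 kb from Serpinb3a. Reads of related Serpinb3 genes could have been counted there. Gm37703, a locus of the TEC class (transcribed loci without a settled gene model) at chr2:24231868-24233651, lies 6.2 kb from Il1f6 on the same strand. It was at 0.083, 0.113 and 0.0303 CPM in PBS, which is at most 4 reads, and 0.751, 0.665 and 0.684 CPM in IL-17A (3.13 ± 0.39 SE, adjusted p = 0.00492). The neighbours Il1f8, Il1f9, Il1f5 and Il1f10 were not called, with log2 fold changes of -0.50 to 0.12.

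**Figure D4:**
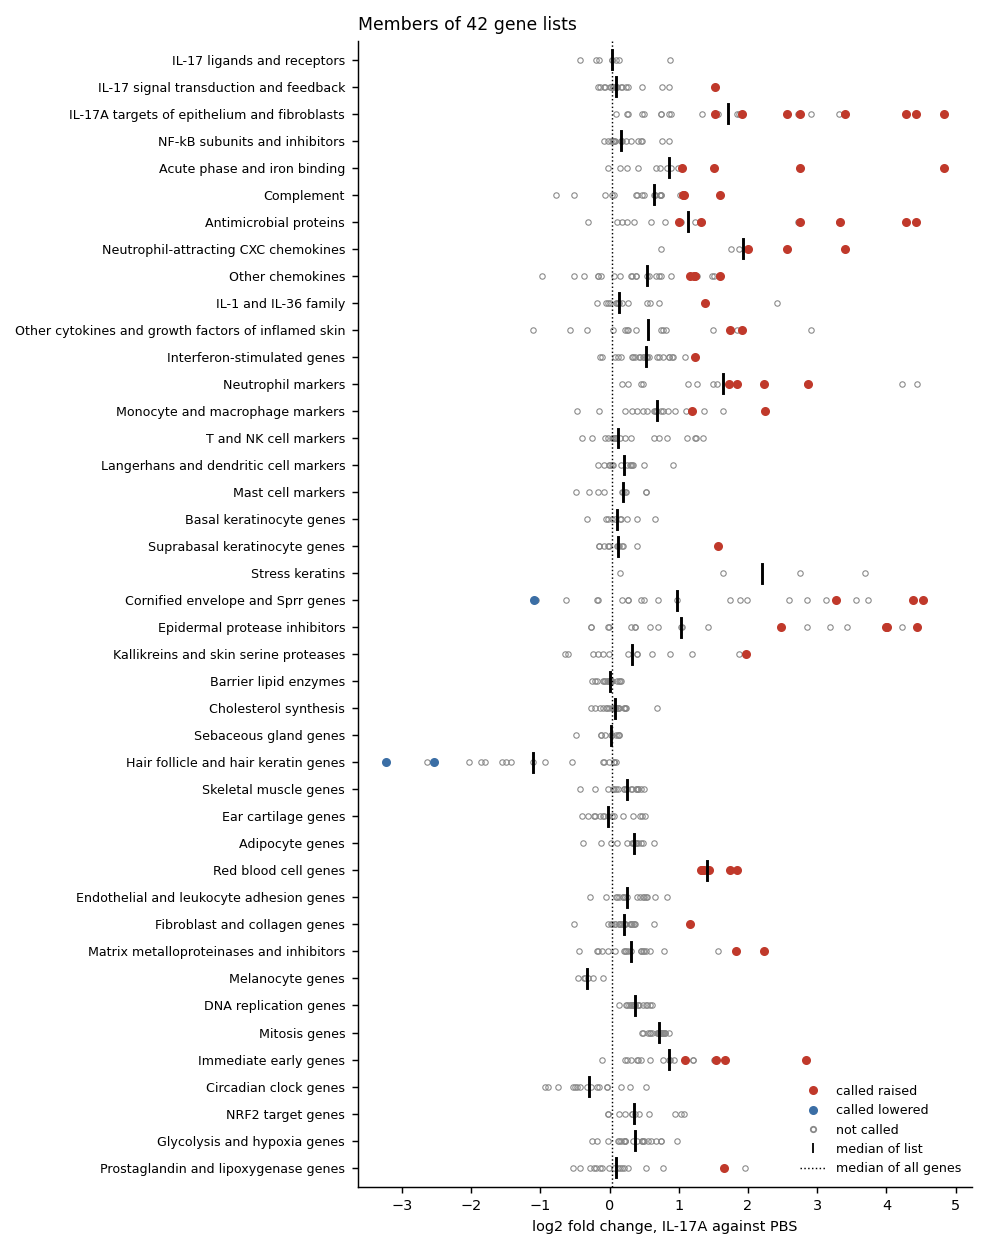
Points give the log2 fold change of each tested member of 42 of the 52 gene lists, red where called raised, blue where called lowered and open where not called, with a bar at the median of the list and a dotted line at 0.04, the median of all genes. IL-17A targets, CXC chemokines, neutrophil markers and red blood cell genes lie to the right, hair keratin and clock genes to the left.

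A few genes of the hair shaft were lowered, most at levels near the limit of counting. Of 19 hair follicle genes 2 were called lowered and none raised (median -1.10), and of 17 hair keratin-associated proteins, a family picked once its values were known, 3 were lowered (median -1.35). The summed level of the hair follicle list, set by its abundant members, overlapped at 478 to 870 CPM in PBS and 611 to 696 CPM in IL-17A. Krt31 was at 0.332, 1.05 and 0.455 CPM in PBS and 0.113, 0.0332 and 0.0402 CPM in IL-17A (-3.23 ± 0.78 SE, adjusted p = 0.0289), which is at most 37 reads. Krt34 was at 0.637, 1.08 and 0.909 CPM against 0.376, 0.0665 and 0 CPM (-2.53 ± 0.74 SE, adjusted p = 0.0491). Krtap21-1 and Krtap19-3 were lowered by a like amount (-3.15 and -3.05, adjusted p = 0.0444 and 0.0337). Prr9, a proline-rich protein gene, was better covered, at 10.8, 13.1 and 9.3 CPM in PBS and 4.36, 1.1 and 3.74 CPM in IL-17A (-1.86 ± 0.49 SE, adjusted p = 0.0365). IL-17A replicate 1 had the highest level of its group for all 5, and no group overlapped. Krt84, another keratin of the hair keratin class, outside the lists and picked once its values were known, went against this and rose from 1.33, 1.53 and 1.12 CPM to 3.64, 4.19 and 3.82 CPM (1.55 ± 0.25 SE, adjusted p = 0.012) and was called in 12 of 13 alternatives. The calls of Krt31 and Krt34 were lost when PBS replicate 2, PBS replicate 3 or any 1 of the IL-17A libraries was left out (adjusted p 0.066 to 0.154). The other genes among the 12 largest falls were thinly covered, such as Mir2137, Mir365-1, B3gnt6, Gp5 and Pip5kl1, each with at most 25 reads in a library.

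Immediate early genes respond to growth factors and stress within minutes. Of 19 on day 4, 4 were called raised, 8 passed the adjusted p and 18 were positive (median 0.85). Fos was at 19.9, 27.5 and 26.2 CPM in PBS and 56.6, 247 and 222 CPM in IL-17A (2.83 ± 0.53 SE, adjusted p = 0.0164). Egr1 was at 16.2, 16.8 and 15.5 CPM against 35.2, 74.1 and 44.4 CPM (1.66 ± 0.24 SE, adjusted p = 0.00903), and Dusp1, a phosphatase that ends MAP kinase signals, at 42.9, 42.5 and 35.1 against 85.9, 145 and 117 CPM (1.53 ± 0.21 SE, adjusted p = 0.00745). The PBS libraries lay close together, and IL-17A replicate 1 was the lowest of its group. For the stress keratins and stefins it was the highest. Red blood cell genes had the same order. All 6 were called raised (median 1.40), Hbb-bs at 50.1, 62.4 and 37.3 CPM in PBS and 80.5, 198 and 129 CPM in IL-17A (1.44 ± 0.33 SE, adjusted p = 0.0265). Slc4a1 overlapped between groups. These are genes of circulating cells, and how much blood each piece of ear held was not recorded in the sources used here. The summed immediate early level was 720, 1384 and 1188 CPM and the summed red cell level 130, 332 and 217 CPM in IL-17A replicates 1, 2 and 3. Whether the one bears on the other was not tested. All 4 early genes lost their call when PBS replicate 3 was left out (adjusted p 0.058 to 0.0911), and Junb did without IL-17A replicate 2. No red cell gene was called without PBS replicate 2 (0.0528 to 0.104), PBS replicate 3 (0.131 to 0.16) or IL-17A replicate 2 (0.0787 to 0.141).

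Clock genes shifted together by small amounts. None of 16 was called, but 7 passed the adjusted p downwards and 1 upwards, against 3.49% and 7.44% of all genes, and in 10 of 16 all IL-17A libraries lay below all PBS libraries, against 14% of all genes. The repressor Per2 was at 32.7, 39.5 and 38.9 CPM in PBS and 17.5, 18.6 and 23.6 CPM in IL-17A (-0.89 ± 0.14 SE, adjusted p = 0.0106). Per3 was at 159, 175 and 187 against 86.2, 102 and 123 CPM (-0.75 ± 0.12 SE, adjusted p = 0.0115). Arntl, which encodes the activator BMAL1 and peaks when Per genes are low, was at 35.5, 31.3 and 28.2 against 45, 45.3 and 46.1 CPM (0.52 ± 0.11 SE, adjusted p = 0.0225). The hour at which each ear was taken is not given in the sources used here, and a difference in hour and an effect of IL-17A cannot be told apart.

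Structural tissues of the ear gave few calls. None was made among 20 muscle, 15 cartilage, 14 adipocyte, 11 Schwann cell, 8 smooth muscle or 6 melanocyte genes, nor among 17 endothelial genes. In endothelium 5 genes passed the adjusted p, among them the leukocyte adhesion molecule Sele, at 2.77, 3.09 and 2.91 CPM in PBS and 5, 5.92 and 4.71 CPM in IL-17A (0.83 ± 0.19 SE, adjusted p = 0.0254). Of 24 fibroblast and collagen genes Tnc, the matrix protein of wounds, was raised from 222, 190 and 154 CPM to 685, 318 and 259 CPM (1.16 ± 0.29 SE, adjusted p = 0.0337), and Col7a1, the anchoring fibril collagen, was lower in every library within the fold threshold (-0.51 ± 0.08 SE, adjusted p = 0.0101). Timp1, an inhibitor of matrix metalloproteinases, went from 9.13, 11.5 and 4.82 CPM to 46.9, 23.3 and 20.5 CPM (1.83 ± 0.34 SE, adjusted p = 0.0165). Ptgs2, the inducible cyclooxygenase, rose by 1.66 ± 0.36 SE (adjusted p = 0.0235). IL-17A replicate 1 was the highest library for Tnc, Timp1 and Ptgs2, and without it their adjusted p was 0.126, 0.0803 and 0.117. It was 0.152, 0.0911 and 0.12 without PBS replicate 3, and Tnc and Ptgs2 were not called without PBS replicate 2 either (0.0973 and 0.0528). Of 16 retinoid genes 1, the dehydrogenase Dhrs9, was raised (1.34, adjusted p = 0.0292), a call lost without PBS replicate 2 (0.0623), PBS replicate 3 (0.136) or IL-17A replicate 1 (0.146). None of 12 NRF2 targets or 12 NADPH oxidase and nitric oxide genes was.

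Cell division genes were not called, and PBS replicate 1 lay apart from the other controls. All 20 mitosis genes were positive (median 0.71), 3 passed the adjusted p and none was called. Their summed level was 1136, 565 and 583 CPM in PBS and 1276, 997 and 1240 CPM in IL-17A, so the groups overlapped. The 20 replication genes were also all positive (median 0.36), with 3 past the adjusted p. Of 22 glycolysis genes 19 were positive (median 0.37) and 5 passed the adjusted p, Gapdh among them at 188, 201 and 177 CPM in PBS and 358, 292 and 299 CPM in IL-17A (0.74 ± 0.13 SE, adjusted p = 0.0143).

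Much of the list of called genes was not made of protein-coding genes. Protein-coding genes were 78.7% of the genes tested, 66.3% of those raised and 16.1% of those lowered. Small structured RNA genes (small nuclear, nucleolar, micro and similar RNAs) were 1.85% of the genes tested and 20.7% of those raised, 43 of 359. Their summed level was 28281, 24395 and 23941 CPM in PBS and 61374, 40284 and 35001 CPM in IL-17A, highest in replicate 1. The class as a whole moved both ways, since 14 were called lowered and its median was -0.17, so the sum rests on its abundant members. MicroRNA genes were among the lowered (such as Mir2137 and Mir365-1) and the raised (Mir511, picked once its values were known). The kinds of RNA within the class were not counted apart, so both directions need not hold for each kind. Rmrp, picked once its values were known, the RNA of RNase MRP, was at 2759, 2376 and 2322 CPM against 8337, 5061 and 4116 CPM (1.23 ± 0.25 SE, adjusted p = 0.02). Conversely, loci of the TEC and sense-intronic classes gave 112 of the 199 lowered genes. Of 1350 tested, 1243 had a negative log2 fold change (median -0.62) and 1 was raised. Of the 112 lowered, 105 (93.8%) lay inside an intron of a gene on the same strand, as did 75.6% of those tested, where reads of the unspliced host transcript are also counted. The tested loci of this kind summed to 2313, 3328 and 3290 CPM in PBS and 1801, 2014 and 2021 CPM in IL-17A, without overlap.

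**Figure D5:**
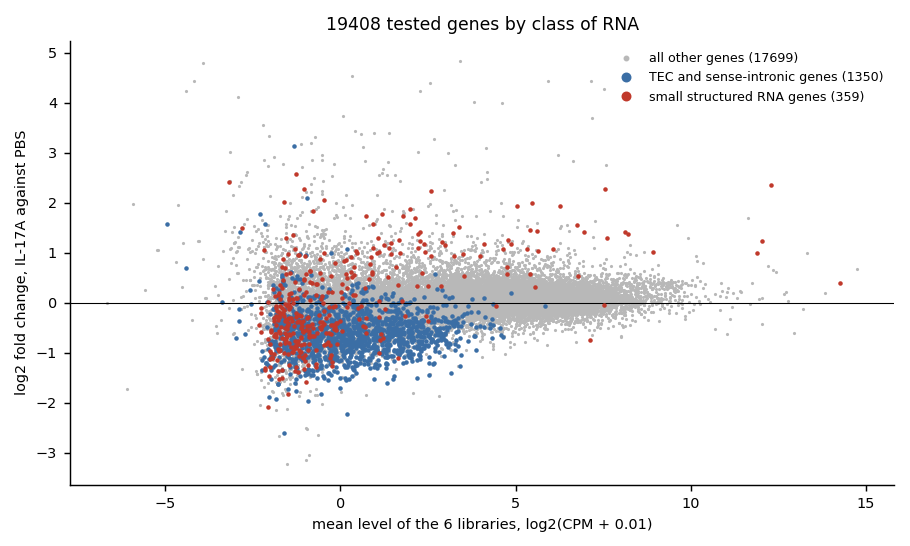
Each point is 1 of the 19408 tested genes, with its mean level over the 6 libraries as log2(CPM + 0.01) on the x axis and its log2 fold change on the y axis. The 1350 TEC and sense-intronic genes (blue) lie mostly below 0 at low levels, and the 359 small structured RNA genes (red) spread to both sides, with 43 called raised and 14 lowered.

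The messages of mitochondrial and ribosomal proteins were higher by small amounts in most cases. Of 11 mitochondrially encoded protein genes 8 lay above PBS in every IL-17A library (median 0.81), of 87 nuclear oxidative phosphorylation genes 72 (median 0.38) and of 92 ribosomal protein genes 77 (median 0.35), against 19.6% of all genes. These families were picked once their values were known. The part of RNA quality, of the amount of unspliced RNA and of the mitochondrial share in the calls above was not tested.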

How the data were processed

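Ear skin RNA of the IL-17A and PBS mice was sequenced as stranded, ribosome-depleted total RNA in pairs of reads. Per the labels and methods, the authors aligned reads to mm10 with STAR 2.5.2b and deposited counts per Ensembl gene from featureCounts of Subread 1.5.1. The strand setting and annotation release are not given in the sources used here. The deposited tables of the authors' own comparisons (fold changes and p-values) were not used. The members and gene lists were chosen with earlier results of these data known.

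Groups came from the sample titles. Of 50684 genes in the table, 50460 had a symbol, and 19408 passed filterByExpr in edgeR 4.0.16 (R 4.3.3) with a minimum count of 10. The quasi-likelihood test compared IL-17A with PBS in 1 fit of 4 group means to 12 libraries with TMM scaling, with Benjamini-Hochberg adjustment over all genes tested. The standard error is the log2 fold change divided by the square root of F. The replicates were separate mice. The common biological coefficient of variation was 14.2%. Depth was 25293468 to 34759293 counts, and at the lowest levels counting error limits the precision. Alternatives were other scalings and filters, DESeq2 1.42.0, the 6 libraries alone, the replicate number as a block and each library left out.

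Genes were named by rule: the 12 largest rises and falls among calls with separated groups, up to 6 called members per direction and list, up to 4 further members by lowest p, any member of the 3 IL-17 lists and defining markers. Not every gene so listed is given in the text. Most genes outside the rule are marked, but some are not, among them Cfp, Il1r2, Ltf, Il22 and Il22ra1. Promoters came from RefSeq on GRCm38.p6, with a match for 12677 of 19405 tested symbols.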

Additional observations from a re-analysis of the deposited data

Results flagged for a closer look

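The effect of IL-17A was also measured in the presence of IL-36γ, as the combination against IL-36γ alone, in the same fit. The interaction is the effect with IL-36γ minus the effect alone. It passed an adjusted p of 0.05 (edgeR) for 107 of 19408 genes. Of these, 20 are among 114 genes whose effect alone is described above. Many were named for that effect, which the interaction subtracts. A higher share than over all genes and an interaction of opposite sign were thus favoured. The sign was opposite in all 20. Levels under IL-36γ alone are not given here. In all 20 the effect with IL-36γ did not pass the adjusted p, and this is no evidence that it was 0.

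For the defence genes the interaction was -4.88 in Saa3 (log2 fold change 4.84 alone and -0.05 with IL-36γ), -1.82 in Gm8080 (2.61 and 0.80), -1.71 in Cfb (1.59 and -0.12), -1.62 in Lcn2 (2.75 and 1.13), -1.41 in Il22ra2, -0.96 in C1ra and -0.92 in Serpina3n. For the immediate early genes it was -3.67 in Fos (2.83 and -0.84), -2.07 in Dusp1, -1.97 in Egr1 and -1.26 in Junb. For genes of myeloid cells it was -2.46 in Marco (1.54 and -0.92), -1.07 in C1qa, and -0.99 in both Lyz2 and Adgre1. In Cd4, from the list of T and NK cell markers, it was -1.33. The clock genes differed in both directions, by 1.04 in Per2 (-0.89 and 0.15), 0.88 in Per3 and -0.99 in Arntl, and Ccl25 by 0.84 (-0.51 and 0.33). The adjusted p of these interactions lay between 0.0122 and 0.0498.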

How the results depend on the processing

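The number of genes called was 407 (208 raised and 199 lowered). It was 9 (9 raised and 0 lowered) with the 6 libraries alone, 730 (428 lowered) by DESeq2 on 12 libraries and 683 (460 lowered) by DESeq2 on the 6 libraries, an alternative chosen after seeing the data. By library size alone 129 genes were raised and 469 lowered, and with at least 10 counts in every library 132 were lowered. Without the fold threshold 2120 genes passed, 1443 raised and 677 lowered. With 1 library left out the total ran from 11 to 913, the raised genes from 10 to 375 and the lowered genes from 1 to 538. Whether the replicate numbers mark a shared batch is not given in the labels. IL-17A and PBS libraries with the same number deviated from their group means with correlations of 0.08, -0.063 and 0.069. Pairs with different numbers ran from -0.267 to 0.278, so this check cannot exclude a shared batch. With the replicate block 527 genes were called (246 raised and 281 lowered), 391 of them among the 407. Among genes described with values, directions turned only where no call was made. Leaving out 1 library at a time, Cxcl2 ran from -0.33 to 5.09, Cxcl3 from -1.12 to 4.37, Il1f5 from -0.14 to 0.15 and Il1f8 from -0.04 to 0.45, with the lowest Cxcl2 and Cxcl3 values when IL-17A replicate 1 was missing. By library size alone Il1f8 was -0.04 and Il1f9 -0.07. The causes were not tested. Genes with few reads, such as the hair keratins, Reg3g and Fpr2, are limited by depth.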
